A study of Rattus norvegicus with 11 samples.

Results

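Neurogranin and the calmodulin kinases were followed through 8 genes: Nrgn, Camk2a, Camk2b, Camk2d, Camk2g, Camk4, Camkk2 and Ppp3ca. They were taken by symbol from the 42172 genes in each deposited count table, and each symbol matched 1 entry. All 8 passed the filter on low counts. Polyadenylated RNA was sequenced from primary hippocampal neurons of CD (Sprague Dawley) IGS rats at day 7 in vitro, as bulk RNA. Each culture expressed 1 of 3 exogenous constructs. The H1.4 CFT cultures (n = 4) expressed the linker histone H1.4 with a mutant tail that follows a C-terminal frameshift. The WT H1.4 cultures (n = 4) expressed the wild-type histone. The GFP cultures (n = 3) expressed green fluorescent protein as the control. The labels give no age of the rats and name neither the vector and promoter of the constructs nor the share of cells that carried them. The design text calls the libraries biological replicates. They are named here by group and number, with numbers 1 to 4 for H1.4 CFT and WT H1.4 and 2 to 4 for GFP.

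Neurogranin is a small postsynaptic protein of forebrain neurons that holds calcium-free calmodulin through its IQ motif and lets it go when calcium enters the spine or when protein kinase C phosphorylates it. Once it has bound calcium, freed calmodulin activates CaMKII, a holoenzyme of alpha, beta, gamma and delta subunits that is abundant at excitatory synapses. Calmodulin with calcium also activates the phosphatase calcineurin, which opposes the kinases at many substrates. A separate branch runs through the kinase CaMKK2 to CaMKIV, which acts largely in the nucleus on CREB and its cofactors.

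The sequence around the annotated start was looked up for these genes, because several of them changed together and in opposite directions. RefSeq promoter windows of the GRCr8 build, 250 bases before to 50 bases after the start, were found for 7 of the 8 genes. They are shown for Nrgn and Camk2a, which fell in H1.4 CFT neurons, and for Camk2d, which rose. 4 short motifs were searched on both strands. TGACG is the core of the cyclic AMP response element that CREB binds. CAGCTG is an E-box, a motif of basic helix-loop-helix factors. GGGCGG is the GC box to which factors of the Sp family bind. TATAAA is the TATA box of core promoters. Capitals mark the matches, as read on the strand of the gene. The Nrgn window is chr8:45452368-45452667 on the minus strand, the Camk2a window chr18:56648930-56649229 on the plus strand and the Camk2d window chr2:217698301-217698600 on the plus strand.
Nrgn: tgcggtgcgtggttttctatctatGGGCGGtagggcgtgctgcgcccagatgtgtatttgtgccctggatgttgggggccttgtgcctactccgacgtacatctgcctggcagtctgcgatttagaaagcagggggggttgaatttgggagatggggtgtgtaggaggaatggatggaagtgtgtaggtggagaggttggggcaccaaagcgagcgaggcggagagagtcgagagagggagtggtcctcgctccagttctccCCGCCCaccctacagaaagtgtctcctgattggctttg
Camk2a: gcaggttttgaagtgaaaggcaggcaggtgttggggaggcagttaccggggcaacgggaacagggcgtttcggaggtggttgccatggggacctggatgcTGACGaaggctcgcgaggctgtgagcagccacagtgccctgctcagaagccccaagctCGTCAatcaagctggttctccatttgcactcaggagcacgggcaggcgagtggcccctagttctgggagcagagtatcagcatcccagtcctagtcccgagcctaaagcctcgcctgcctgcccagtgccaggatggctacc
Camk2d: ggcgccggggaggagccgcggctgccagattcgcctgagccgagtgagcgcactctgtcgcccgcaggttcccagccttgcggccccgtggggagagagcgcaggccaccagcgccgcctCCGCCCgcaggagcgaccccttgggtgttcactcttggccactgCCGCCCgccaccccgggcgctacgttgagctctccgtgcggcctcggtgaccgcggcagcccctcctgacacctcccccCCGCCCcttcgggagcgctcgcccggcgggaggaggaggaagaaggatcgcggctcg
The Nrgn window had 57.7% GC, 14 CpG dinucleotides and 2 GC boxes. The Camk2a window had 61.3% GC, 12 CpG dinucleotides, no GC box and 2 TGACG matches. The Camk2d window had 74.7% GC, 36 CpG dinucleotides and 3 GC boxes. Of the windows not shown, those of Camk4 and Ppp3ca, which also fell, had 45.7% and 70% GC with 0 and 37 CpG dinucleotides. Those of Camk2b and Camk2g, which did not pass against WT H1.4, had 81.3% and 80% GC with 6 and 9 GC boxes. Over 12585 windows of tested genes the median was 60% GC and 19 CpG dinucleotides. A GC box stood in 57.8% of those windows, TGACG in 29.5%, CAGCTG in 16.1% and TATAAA in 7.41%. These matches describe letters in a window and were not tied to any change.

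Between 12070941 and 18846492 reads were assigned to genes in each library, and 17294 genes were tested. Values are CPM, the counts scaled to a fixed total of reads in genes and corrected by TMM, a factor that aligns the bulk of genes between libraries. The words rose and fell are kept for genes with an adjusted p under 0.05 in edgeR's quasi-likelihood test. The SE of a fold change was derived from that test, as the size of the log2 fold change divided by the square root of the F statistic. CPM does not correct for transcript length, so levels are compared between groups and not between genes. Fewer cells of a type and less RNA per cell cannot be told apart in bulk RNA. H1f4, the rat gene of H1.4, had 5 to 8 counts in H1.4 CFT libraries, 1 to 5 in WT H1.4 libraries and 0 to 2 in GFP libraries. The construct sequences were not used here, so these counts do not check the labels. The defining neuronal markers Rbfox3, Tubb3 and Map2 averaged 96.6, 1237 and 905 CPM in H1.4 CFT libraries, and the neurons were accompanied by astrocyte RNA, with Gfap at 557 ± 51.5 CPM in H1.4 CFT libraries, 305 ± 16.6 CPM in WT H1.4 and 537 ± 41.9 CPM in GFP libraries (SD, n = 4, 4 and 3).

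In H1.4 CFT neurons set against WT H1.4 neurons, neurogranin fell most of the 8 genes, the alpha subunit of CaMKII fell and the delta subunit rose. The 2 kinases of the nuclear branch and the calcineurin subunit fell by smaller amounts, and the beta and gamma subunits of CaMKII did not pass the test. In all, 1 of the 8 genes rose and 5 fell. Over all genes tested, 35.9% passed in this comparison, 16.7% as higher and 19.2% as lower. Against GFP, 1 of the 8 rose and 4 fell, where 29.5% of all genes passed, 13.3% as higher and 16.2% as lower. WT H1.4 versus GFP gave 0 of 8 with edgeR, DESeq2 and limma-voom alike. In edgeR 0.943% of all genes passed there, 0.434% as higher and 0.509% as lower. At an unadjusted edgeR p under 0.05 there was 1 of the 8 (Camkk2), and the share of all genes at that threshold is not given here. The 8 genes had a median log2 fold change of -0.20 (H1.4 CFT versus WT H1.4), -0.13 (H1.4 CFT versus GFP) and 0.049 (WT H1.4 versus GFP), beside 0.018, 0.011 and -0.0011 for all genes. These comparisons share libraries, so they are not independent of each other.

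**Figure D1:**
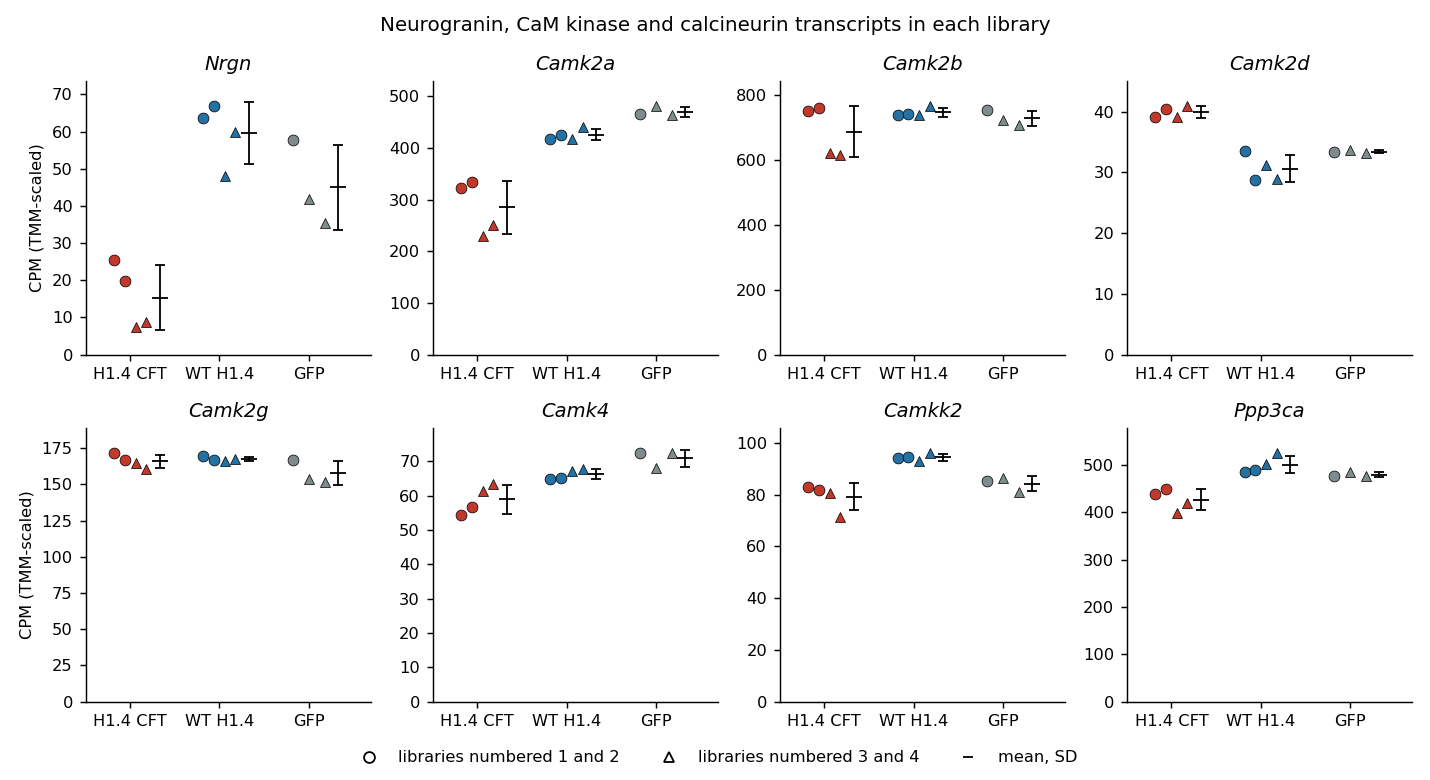
CPM of each gene in every library, with H1.4 CFT, WT H1.4 and GFP from left to right; circles are libraries numbered 1 and 2, triangles those numbered 3 and 4, and bars give the mean and SD (n = 4, 4 and 3). All 4 H1.4 CFT libraries lay below every WT H1.4 and GFP library for Nrgn, Camk2a, Camk4 and Ppp3ca, and above them for Camk2d.

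Nrgn had 25.5, 19.7, 7.32 and 8.76 CPM in H1.4 CFT libraries 1 to 4. It had 63.8, 66.9, 48.0 and 60.0 CPM in WT H1.4 libraries 1 to 4 and 57.7, 41.9 and 35.4 CPM in GFP libraries 2 to 4. The H1.4 CFT libraries did not overlap with the others, and those numbered 3 and 4 were the lowest of all 11. In read counts, H1.4 CFT libraries held 449, 350, 129 and 169 reads of Nrgn, against 870 to 1177 in WT H1.4 libraries and 499 to 794 in GFP libraries. Nrgn fell 2.94-fold against GFP (log2 fold change -1.56, SE 0.40, edgeR adjusted p = 0.0198), beside 3.90-fold against WT H1.4 (log2 fold change -1.96, SE 0.37, adjusted p = 0.00378). WT H1.4 neurons averaged 59.6 ± 8.29 CPM and GFP neurons 45.0 ± 11.5 CPM (SD, n = 4 and 3), and the 2 groups overlapped (log2 fold change 0.41, SE 0.37, adjusted p = 0.755). The order of the means was therefore WT H1.4, GFP and H1.4 CFT, with the first pair not separated beyond their spread. The call against GFP was lost without GFP 2 (log2 fold change -1.34, adjusted p = 0.0711) and when WT H1.4 libraries were left out of the fit (-1.56, adjusted p = 0.0717).

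Nrgn was also the most uneven of the 8 within H1.4 CFT libraries, with a coefficient of variation of 57.1%, against 13.9% in WT H1.4 and 25.5% in GFP. Camk2a was next, with 18.1% in H1.4 CFT libraries, against 2.57% in WT H1.4 and 2.03% in GFP. The unevenness followed the library numbers: libraries 1 and 2 of H1.4 CFT were nearer to the other groups than libraries 3 and 4. No label names a batch, and the numbers were taken as pairs because earlier results of these data had shown such a split. The fit within pairs takes the spread inside pairs alone, so its SE and p understate the spread between libraries of a group. Within libraries 1 and 2, Nrgn in H1.4 CFT was 2.89-fold below WT H1.4 (log2 fold change -1.53, SE 0.12). Within libraries 3 and 4 it was 6.67-fold lower (-2.74, SE 0.15). Against GFP the values were -1.35 (SE 0.15) and -2.25 (SE 0.16), where GFP gave 1 library to the first pair and 2 to the second. The direction was the same in both pairs, and the difference between the pairs was not tested.

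**Figure D2:**
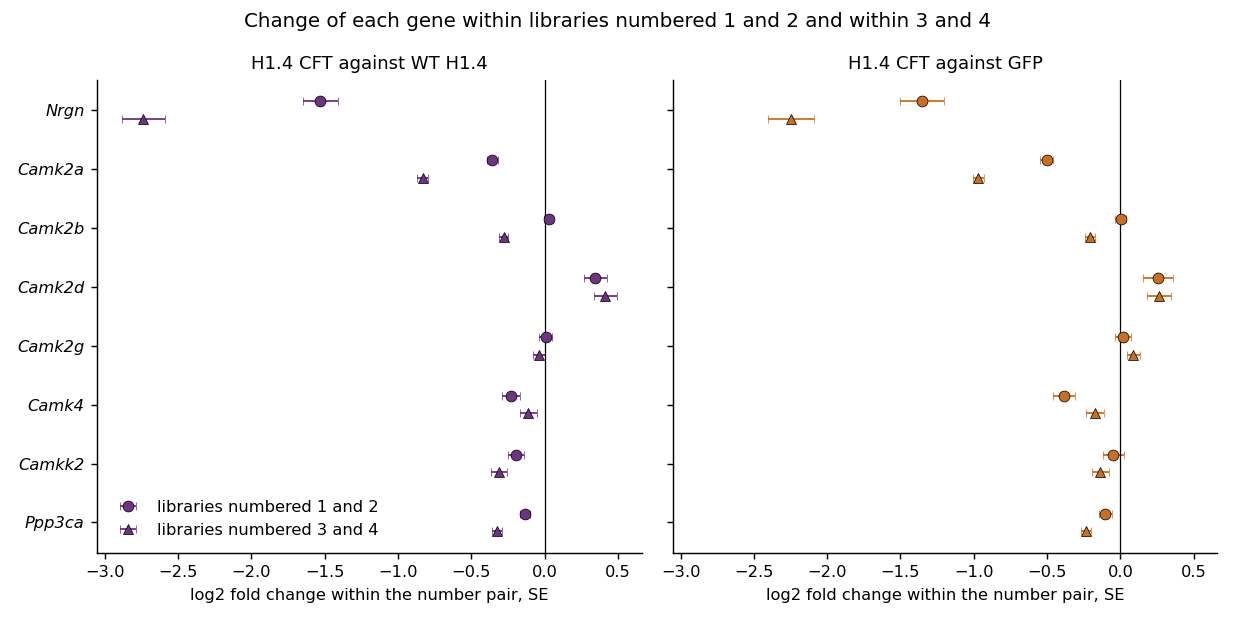
Log2 fold change of each gene within libraries numbered 1 and 2 (circles) and within those numbered 3 and 4 (triangles), for H1.4 CFT versus WT H1.4 and H1.4 CFT versus GFP; bars are 1 SE. Nrgn sat at -1.53 and -2.74 and Camk2a at -0.36 and -0.83 against WT H1.4, while Camk2d sat at 0.35 and 0.41.

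Among the CaMKII subunits, Camk2a encodes the alpha subunit, the main subunit of forebrain excitatory neurons. Camk2a had 323, 335, 230 and 252 CPM in H1.4 CFT libraries, 418, 425, 418 and 441 CPM in WT H1.4 libraries and 465, 481 and 464 CPM in GFP libraries. Each H1.4 CFT library was below each of the others, and each WT H1.4 library was below each GFP library. Camk2a fell 1.49-fold against WT H1.4 (log2 fold change -0.58, SE 0.11, edgeR adjusted p = 0.0025), and against GFP it fell 1.65-fold (-0.72, SE 0.12, adjusted p = 0.00131). The step between WT H1.4 and GFP did not pass in the fit of all libraries (log2 fold change -0.14, SE 0.12, adjusted p = 0.71). It passed when H1.4 CFT libraries were left out of the fit (-0.15, SE 0.038, adjusted p = 0.0467). Against WT H1.4, Camk2a in H1.4 CFT changed by -0.36 (SE 0.037) on the log2 scale within libraries 1 and 2 and by -0.83 (SE 0.037) within libraries 3 and 4.

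Camk2d encodes the delta subunit, which is found in many tissues besides brain, and it moved the other way. Camk2d had 39.2, 40.5, 39.2 and 41.0 CPM in H1.4 CFT libraries, 33.5, 28.8, 31.2 and 28.9 CPM in WT H1.4 libraries and 33.3, 33.7 and 33.2 CPM in GFP libraries. All 4 H1.4 CFT libraries were above the rest, and they lay close together, with a coefficient of variation of 2.32%. Camk2d rose 1.30-fold against WT H1.4 (log2 fold change 0.38, SE 0.061, edgeR adjusted p = 8.11e-05), and against GFP it rose 1.20-fold (0.26, SE 0.067, adjusted p = 0.00606). WT H1.4 and GFP libraries overlapped (log2 fold change -0.12, adjusted p = 0.509). Within libraries 1 and 2, where GFP has 1 library, the change against GFP was 0.26 (adjusted p = 0.065).

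Camk2b encodes the beta subunit, which also binds filamentous actin. Camk2b had 751, 758, 622 and 615 CPM in H1.4 CFT libraries, 738, 742, 738 and 766 CPM in WT H1.4 libraries and 753, 721 and 708 CPM in GFP libraries. H1.4 CFT libraries 1 and 2 lay within the range of the other groups and libraries 3 and 4 below it. Over all 4 libraries the change did not pass against WT H1.4 (log2 fold change -0.12, SE 0.060, adjusted p = 0.136) or against GFP (-0.083, SE 0.065, adjusted p = 0.368). Within libraries 3 and 4 alone the edgeR adjusted p was under 0.05 against WT H1.4 (-0.28, SE 0.031, adjusted p = 6.19e-12) and against GFP (-0.21, adjusted p = 9.11e-08). Those pairs were chosen from a split in these data, which lowers the SE from 0.060, so these p-values overstate the evidence. Within libraries 1 and 2 the change was 0.028 (SE 0.031) against WT H1.4. The change against WT H1.4 also passed without CFT 1 (-0.16, adjusted p = 0.0365), without CFT 2 (-0.17, adjusted p = 0.0233) and with no filter on low counts (-0.13, adjusted p = 0.0161).

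Camk2g, the gamma subunit gene, had 172, 167, 164 and 161 CPM in H1.4 CFT libraries, 170, 167, 166 and 168 CPM in WT H1.4 libraries and 167, 154 and 152 CPM in GFP libraries. All 3 groups overlapped. Its log2 fold change was -0.016 (SE 0.041, adjusted p = 0.789) for H1.4 CFT versus WT H1.4 and 0.074 (SE 0.044, adjusted p = 0.226) for H1.4 CFT versus GFP. With scaling by library size alone the second passed (0.15, adjusted p = 0.0123).

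**Figure D3:**
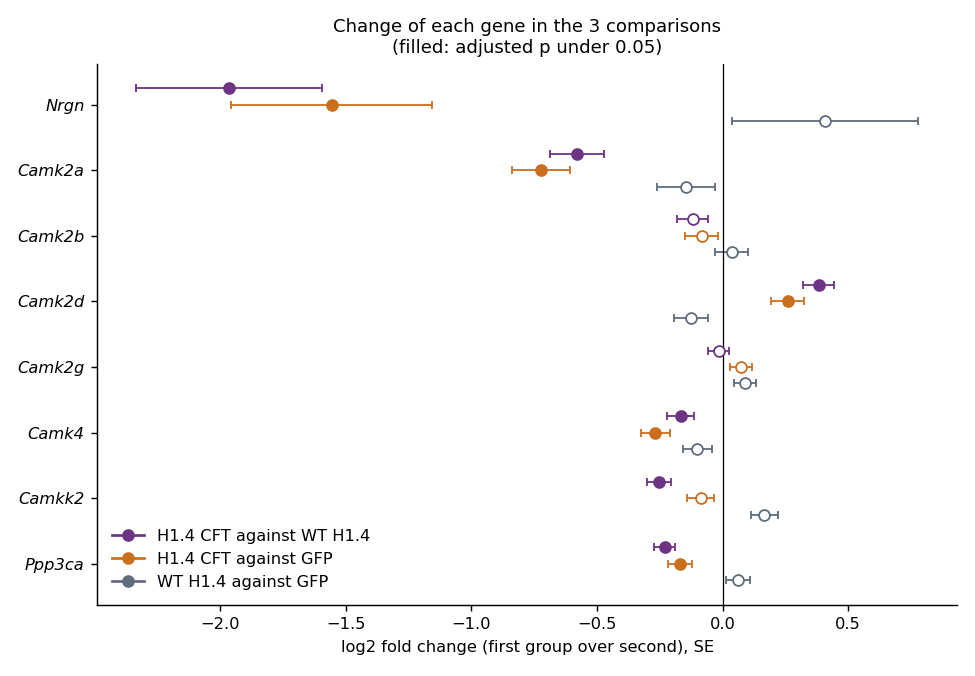
Log2 fold change of each gene in the 3 comparisons, first-named group over second, with bars of 1 SE; filled points have an adjusted p under 0.05. Nrgn lay farthest from 0, at -1.96 and -1.56 for H1.4 CFT versus WT H1.4 and GFP, and no WT H1.4 versus GFP point is filled.

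The unequal changes altered the balance of CaMKII transcripts. Ratios of counts within a library do not depend on scaling, although their level depends on transcript lengths, so the groups were compared on the log2 ratio. The log2 ratio of Camk2a to Camk2b was -1.22, -1.18, -1.43 and -1.29 in H1.4 CFT libraries, -0.82, -0.80, -0.82 and -0.80 in WT H1.4 libraries and -0.69, -0.58 and -0.61 in GFP libraries. The groups did not overlap, and WT H1.4 lay between the others, in libraries 1 and 2 as in libraries 3 and 4. H1.4 CFT averaged -1.28 ± 0.11 and WT H1.4 -0.81 ± 0.012 (SD, n = 4 each), a difference of -0.47 (exact two-sided permutation p = 0.0286, adjusted p = 0.0343 over 6 tests). Against GFP, at -0.63 ± 0.058 (SD, n = 3), the difference was -0.65 for H1.4 CFT and -0.18 for WT H1.4, and both gave those p-values again. An exact p of 0.0286 is the smallest that 4 libraries against 4, or 4 against 3, can give with this test of the size of the difference. That test exchanged libraries freely between groups. Exchange within pairs of equal number, added after the data were seen, gave a lower ratio in H1.4 CFT in 4 of 4 pairs with WT H1.4 (exact permutation p = 0.125) and in 3 of 3 pairs with GFP (exact permutation p = 0.25). These are the smallest values that 4 and 3 pairs allow, so neither call can be reached within pairs.

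The log2 ratio of the alpha and beta transcripts together to the delta and gamma transcripts together was 2.35, 2.40, 2.07 and 2.11 in H1.4 CFT libraries, 2.51, 2.57, 2.55 and 2.62 in WT H1.4 libraries and 2.60, 2.68 and 2.66 in GFP libraries. H1.4 CFT libraries were below all others. H1.4 CFT averaged 2.23 ± 0.17, WT H1.4 2.56 ± 0.046 and GFP 2.65 ± 0.041 (SD, n = 4, 4 and 3). H1.4 CFT differed from WT H1.4 by -0.33 and from GFP by -0.42 (exact permutation p = 0.0286, adjusted p = 0.0343 for each). Exchange within pairs of equal number gave exact permutation p = 0.125 and 0.25 here too, with H1.4 CFT lower in 4 of 4 and 3 of 3 pairs. The call against WT H1.4 was lost without WT 1, WT 2, WT 3 or WT 4 (differences of -0.35 to -0.31, exact permutation p = 0.0571 in each), where 0.0286 could have been reached. Between WT H1.4 and GFP it was -0.087 (exact permutation p = 0.0857, adjusted p = 0.0857). As a share of all CaMKII counts, Camk2a made up 24.1% ± 1.77 in H1.4 CFT libraries, 31.1% ± 0.299 in WT H1.4 and 33.9% ± 0.952 in GFP libraries, and Camk2d made up 3.43% ± 0.402, 2.24% ± 0.185 and 2.41% ± 0.0492 in the same order (SD, n = 4, 4 and 3).

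**Figure D4:**
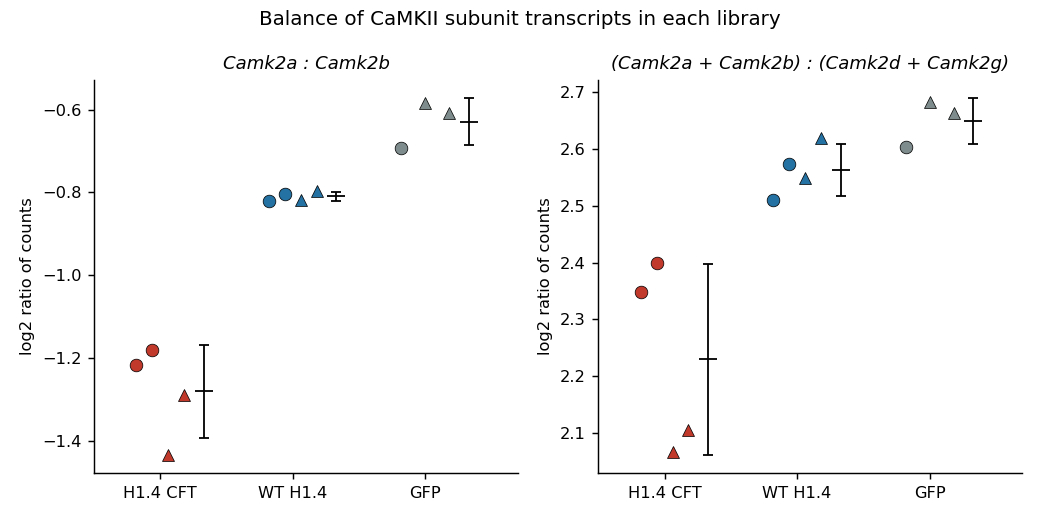
Log2 ratio of counts in each library for Camk2a to Camk2b (left) and for Camk2a plus Camk2b to Camk2d plus Camk2g (right), with mean and SD; circles are libraries numbered 1 and 2, triangles those numbered 3 and 4, and the axes do not start at 0. H1.4 CFT libraries lay between -1.43 and -1.18 on the left, below the WT H1.4 libraries at -0.82 to -0.80 and the GFP libraries at -0.69 to -0.58.

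In the nuclear branch, Camkk2 encodes the kinase that activates CaMKI and CaMKIV. Camkk2 had 83.0, 81.8, 80.8 and 71.4 CPM in H1.4 CFT libraries, 94.3, 94.5, 92.9 and 96.1 CPM in WT H1.4 libraries and 85.2, 86.5 and 81.1 CPM in GFP libraries. WT H1.4 libraries were above both other groups, which overlapped. Camkk2 fell 1.19-fold in H1.4 CFT versus WT H1.4 (log2 fold change -0.25, SE 0.049, edgeR adjusted p = 0.00046). Against GFP the change of H1.4 CFT was -0.088 (SE 0.053, adjusted p = 0.232), and that of WT H1.4 was 0.17 (SE 0.053, adjusted p = 0.174). In the GRCr8 gene table the span of Camkk2 overlaps P2rx4, a protein-coding gene, and 3 further entries, while Camk2b, Camk4 and Ppp3ca overlap non-coding entries alone. The counter set aside 0.396% to 0.430% of each library's total as ambiguous. The strand setting of the counting is not given, so how reads in an overlap were assigned is not known.

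Camk4 encodes CaMKIV, the kinase below CaMKK2 that phosphorylates CREB. Camk4 had 54.3, 56.7, 61.3 and 63.5 CPM in H1.4 CFT libraries, 64.8, 65.0, 67.2 and 67.6 CPM in WT H1.4 libraries and 72.3, 68.0 and 72.4 CPM in GFP libraries. The groups did not overlap, with GFP highest and H1.4 CFT lowest. Camk4 fell 1.12-fold against WT H1.4 (log2 fold change -0.17, SE 0.053, edgeR adjusted p = 0.0184), and against GFP it fell 1.20-fold (-0.27, SE 0.057, adjusted p = 0.00157). WT H1.4 versus GFP gave -0.10 (SE 0.057, adjusted p = 0.538). Libraries 1 and 2 of H1.4 CFT were the lower pair for Camk4, the reverse of Nrgn and Camk2a. Its log2 fold change against WT H1.4 was -0.23 (SE 0.061) within libraries 1 and 2 and -0.11 (SE 0.059) within libraries 3 and 4. The call against WT H1.4 was lost without CFT 1 (-0.13, adjusted p = 0.069), within libraries 3 and 4 (adjusted p = 0.123) and with scaling by library size alone (-0.077, adjusted p = 0.297).

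Ppp3ca encodes the alpha catalytic subunit of calcineurin, the calmodulin-dependent phosphatase. Ppp3ca had 438, 448, 398 and 420 CPM in H1.4 CFT libraries, 486, 488, 502 and 525 CPM in WT H1.4 libraries and 476, 485 and 477 CPM in GFP libraries. The H1.4 CFT libraries were the lowest, and all WT H1.4 libraries were above all GFP libraries by small steps. Ppp3ca fell 1.17-fold against WT H1.4 (log2 fold change -0.23, SE 0.043, edgeR adjusted p = 0.000313), and against GFP it fell 1.12-fold (-0.17, SE 0.046, adjusted p = 0.00855). WT H1.4 versus GFP gave 0.062 (SE 0.046, adjusted p = 0.67). The call against GFP was lost within libraries 1 and 2 (-0.10, adjusted p = 0.0785) and with scaling by library size alone (-0.097, adjusted p = 0.0747).

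Values of the groups did not overlap for 6 of the 8 genes in H1.4 CFT versus WT H1.4, for 5 in H1.4 CFT versus GFP and for 4 in WT H1.4 versus GFP. Over all genes tested the shares were 34.6%, 35.5% and 12.2%. The 4 genes that separated WT H1.4 from GFP were Camk2a and Camk4, lower in WT H1.4, and Camkk2 and Ppp3ca, higher in WT H1.4. None of the 4 passed the test there.

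Across the 11 libraries, log2 CPM of Nrgn went with that of Camk2a (Pearson r = 0.93), Ppp3ca (0.92), Camkk2 (0.83) and Camk2b (0.83), and opposite to Camk2d (-0.85). Its r was 0.49 with Camk4 and 0.16 with Camk2g. These values describe 11 libraries that share group and number pair, and they carry no test. Among 12420 genes with a mean of at least 2 CPM, the 5 with the highest r to Nrgn were Ptpn5 (r = 0.994), followed by Tmem254, Prkce, Chd5 and Slc6a6 (each 0.990 after rounding). Ptpn5, which encodes the striatal-enriched tyrosine phosphatase STEP, averaged 94.3 ± 13.1 CPM in H1.4 CFT libraries, 136 ± 4.25 CPM in WT H1.4 and 123 ± 4.21 CPM in GFP libraries (SD, n = 4, 4 and 3). Its log2 fold change against WT H1.4 was -0.52, smaller in size than that of Nrgn. These genes were picked for following Nrgn over the same libraries, so lower values in H1.4 CFT are part of the choice. Prkce encodes protein kinase C epsilon and Slc6a6 a taurine transporter, and their log2 fold changes against WT H1.4 were -0.55 and -0.48.

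Of 47 other genes of calmodulin signalling, all tested, 3 rose and 20 fell in H1.4 CFT versus WT H1.4, and 24 did not pass, where 16.7% of all genes rose and 19.2% fell. With scaling by library size alone, 9 rose and 15 fell, and over all genes, whose median shifted by 0.089, 4986 rose and 2272 fell. The median log2 fold change was -0.11, beside 0.018 for all genes. Against GFP, 5 rose, 20 fell and 22 did not pass, where 13.3% of all genes rose and 16.2% fell, with a median of -0.17 beside 0.011. In WT H1.4 versus GFP, 1 fell and 46 did not pass, where 0.509% of all genes fell. The lists were chosen with earlier results known, so these counts describe the genes and do not test the pathway.

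**Figure D5:**
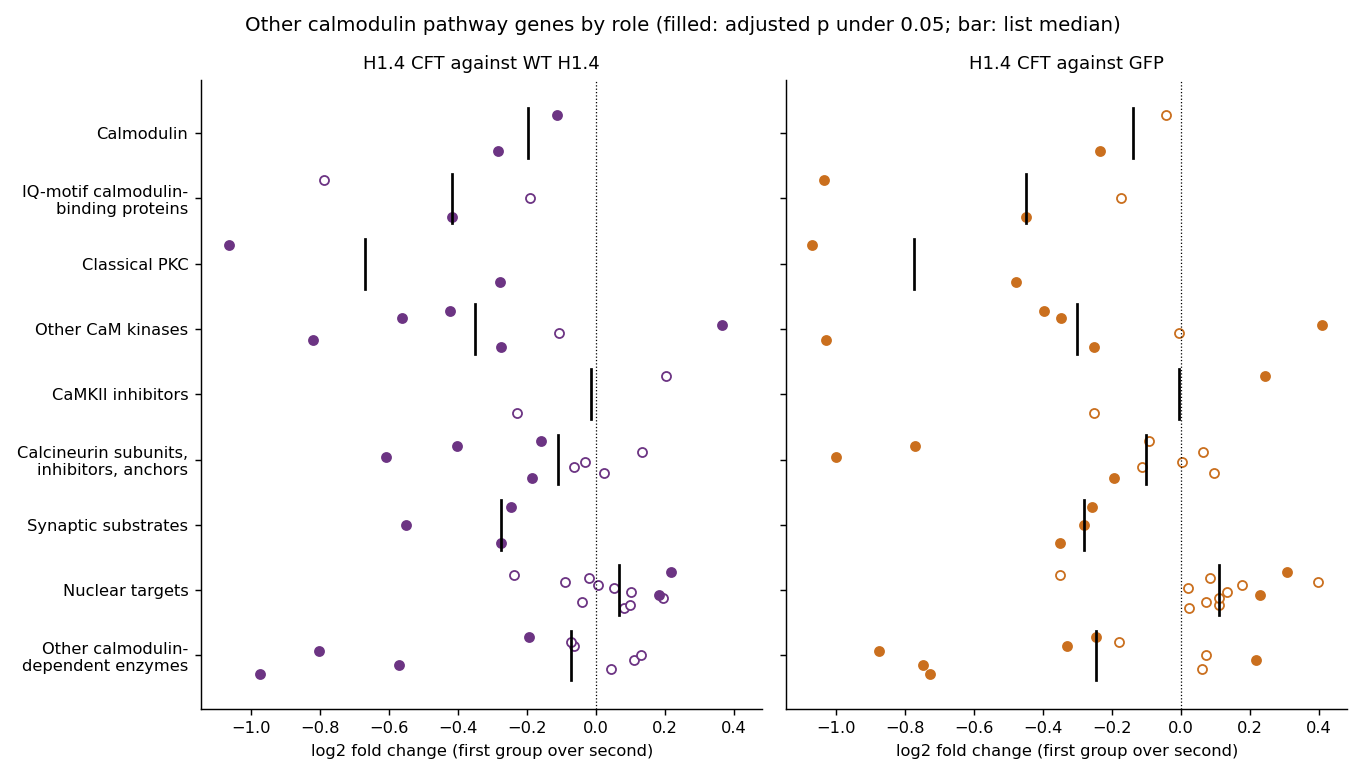
Log2 fold change of each of the 47 other genes of calmodulin signalling, in rows by role, for H1.4 CFT versus WT H1.4 (left) and H1.4 CFT versus GFP (right); filled points have an adjusted p under 0.05 and bars mark the median of a row. In H1.4 CFT versus WT H1.4, 20 of the 47 are filled left of 0 and 3 right of 0, and the row of nuclear targets has its median right of 0, at 0.067 and 0.11.

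Calm2 and Calm3 encode calmodulin itself. Calm2 had 703, 673, 659 and 666 CPM in H1.4 CFT libraries, against 827, 848, 815 and 796 CPM in WT H1.4 libraries and 756, 815 and 812 CPM in GFP libraries. It fell 1.22-fold against WT H1.4 (log2 fold change -0.28, SE 0.040, edgeR adjusted p = 2.41e-05), and against GFP it fell 1.18-fold (-0.23, SE 0.043, adjusted p = 0.00041). Calm3 passed narrowly against WT H1.4 (log2 fold change -0.11, adjusted p = 0.0457), and its groups overlapped. The call of Calm3 was lost in 10 of 21 other settings, among them library size alone (-0.024, adjusted p = 0.641), libraries 1 and 2 (-0.018, adjusted p = 0.727) and the omission of WT 1, WT 3, WT 4, CFT 3, CFT 4 or GFP 4 (-0.12 to -0.083, adjusted p = 0.0542 to 0.155). Calmodulin genes have alike coding sequences, so the split of reads between them is uncertain.

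Of the other proteins that bind calmodulin through an IQ motif, Gap43, the growth cone and presynaptic relative of neurogranin, fell 1.34-fold (689 ± 99.1 CPM in H1.4 CFT against 920 ± 48.0 CPM in WT H1.4, adjusted p = 0.00243). Pcp4 and Pcp4l1 did not pass against WT H1.4. Among the classical protein kinases C, Prkcb, the beta isoform, had 104, 102, 78.0 and 78.3 CPM in H1.4 CFT libraries, against 174, 202, 188 and 192 CPM in WT H1.4 libraries and 200, 186 and 184 CPM in GFP libraries. It fell 2.09-fold against WT H1.4 (log2 fold change -1.06, SE 0.097, adjusted p = 1.5e-05), and against GFP it fell 2.10-fold. Prkca, the alpha isoform, fell 1.21-fold against WT H1.4 (adjusted p = 0.00221; -0.075 on the log2 scale and adjusted p = 0.222 within libraries 1 and 2), and against GFP it fell 1.39-fold (adjusted p = 5.55e-05).

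Among 6 further calmodulin kinases, 4 fell and 1 rose in both H1.4 CFT comparisons. Over all genes, 19.2% fell and 16.7% rose against WT H1.4, and 16.2% fell and 13.3% rose against GFP. Camk1d, a CaMKI that CaMKK activates, fell 1.77-fold against WT H1.4 (32.0 ± 2.52 CPM in H1.4 CFT against 56.5 ± 7.15 CPM in WT H1.4, adjusted p = 2.59e-06), and against GFP it fell 2.04-fold (65.3 ± 5.55 CPM). Camkk1, the other kinase kinase, fell 1.48-fold and the pseudokinase gene Camkv 1.34-fold against WT H1.4. The call of Camkk1 against GFP (log2 fold change -0.35, adjusted p = 0.0286) was lost without CFT 3, CFT 4, GFP 2 or GFP 3 (-0.33 to -0.26, adjusted p = 0.0572 to 0.0999), within libraries 1 and 2 (-0.19, adjusted p = 0.204) and with only the groups compared (-0.35, adjusted p = 0.0658). Pnck, which encodes CaMKI beta and was named after its values were seen, rose 1.29-fold against WT H1.4 (adjusted p = 0.0036), and against GFP it rose 1.33-fold (adjusted p = 0.00434). Neither CaMKII inhibitor gene passed against WT H1.4. Camk2n2 had a log2 fold change of 0.20 there (adjusted p = 0.0508) and rose 1.18-fold against GFP (adjusted p = 0.041).

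In the calcineurin list of 8 genes, 4 fell against WT H1.4 and 3 against GFP, where 19.2% and 16.2% of all genes fell. In that list 0 rose in either. Rcan2, a regulator that binds calcineurin, fell 1.52-fold against WT H1.4 (log2 fold change -0.61, SE 0.081, adjusted p = 1.21e-05), and against GFP it fell 2.00-fold. It was also the 1 gene of the 47 that fell in WT H1.4 versus GFP, 1.31-fold (log2 fold change -0.39, SE 0.084, adjusted p = 0.0249). That call was lost without WT 1, WT 2, WT 4, GFP 3 or GFP 4 (-0.41 to -0.33, adjusted p = 0.0595 to 0.21) and within libraries 1 and 2 (-0.30, adjusted p = 0.285). Akap5, which anchors calcineurin and kinases at the postsynaptic membrane, averaged 9.42 ± 0.668 CPM in H1.4 CFT libraries, 12.5 ± 0.746 CPM in WT H1.4 and 16.1 ± 0.614 CPM in GFP libraries. It fell 1.32-fold against WT H1.4 and 1.71-fold against GFP. Ppp3cb, the beta catalytic subunit, fell 1.14-fold in both comparisons. Its call against WT H1.4 was lost with library size alone (-0.098, adjusted p = 0.0756) and within libraries 1 and 2 (-0.050, adjusted p = 0.348), and that against GFP within libraries 1 and 2 (-0.10, adjusted p = 0.107).

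The 3 synaptic substrates and partners of CaMKII listed fell in both H1.4 CFT comparisons, where 19.2% and 16.2% of all genes fell. Grin2b, the NMDA receptor subunit to which CaMKII binds, fell 1.46-fold (352 ± 32.9 CPM in H1.4 CFT against 515 ± 53.3 CPM in WT H1.4, adjusted p = 0.000166). Gria1, an AMPA receptor subunit, fell 1.21-fold against WT H1.4, and against GFP it fell 1.28-fold. Syn1, which encodes the synaptic vesicle protein synapsin I, had 210, 221, 195 and 188 CPM in H1.4 CFT libraries, against 234, 240, 247 and 244 CPM in WT H1.4 libraries and 248, 237 and 245 CPM in GFP libraries. It fell 1.19-fold against WT H1.4 (log2 fold change -0.25, SE 0.047, adjusted p = 0.000436), and against GFP it fell 1.19-fold (adjusted p = 0.000743). Syn1 overlaps Timp1 and Araf in the gene table used, so its reads are uncertain where the strand was not counted. Grin2b fell 1.21-fold against GFP (adjusted p = 0.0238), a call that was lost with the replicate block (log2 fold change -0.28, adjusted p = 0.0882) and without CFT 3, CFT 4, GFP 2 or GFP 4 (-0.29 to -0.24, adjusted p = 0.0562 to 0.0976).

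Of 12 nuclear targets of the pathway, 0 fell and 2 rose in both H1.4 CFT comparisons, a share near the 16.7% and 13.3% of all genes that rose against WT H1.4 and GFP. Mef2d, a transcription factor that calcineurin and CaMK signals act on, rose 1.16-fold against WT H1.4 (122 ± 4.28 CPM in H1.4 CFT against 105 ± 2.84 CPM in WT H1.4, adjusted p = 0.000627), and against GFP it rose 1.24-fold (98.6 ± 4.60 CPM). Crtc3, a CREB coactivator, passed narrowly against WT H1.4 (1.13-fold, adjusted p = 0.0472). That call was lost in 13 of 21 other settings: with DESeq2 (adjusted p = 0.064), with no filter (adjusted p = 0.103), within either number pair (adjusted p = 0.181 and 0.0628) and without any 1 library other than CFT 1 and WT 4 (log2 fold change 0.14 to 0.19, adjusted p = 0.0507 to 0.165). Against GFP (1.17-fold, adjusted p = 0.0311) it was lost in 7, among them the omission of CFT 3, CFT 4, GFP 2 or GFP 4 (0.18 to 0.23, adjusted p = 0.0559 to 0.12). Creb1, the gene of the factor that CaMKIV phosphorylates, averaged 54.8 ± 1.36 CPM in H1.4 CFT libraries, 51.8 ± 2.36 CPM in WT H1.4 and 53.9 ± 3.66 CPM in GFP libraries and did not pass in any comparison.

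Among 9 other enzymes that calmodulin regulates, 4 fell against WT H1.4 and 5 against GFP, where 19.2% and 16.2% of all genes fell. Of the 9, 1, Pde1b, rose against GFP (log2 fold change 0.22, edgeR adjusted p = 0.0313), where 13.3% of all genes rose. Adcy1, the calmodulin-stimulated adenylyl cyclase, had 114, 122, 73.0 and 73.2 CPM in H1.4 CFT libraries, against 182, 193, 183 and 192 CPM in WT H1.4 libraries and 179, 146 and 149 CPM in GFP libraries. H1.4 CFT libraries 3 and 4 were again the lowest. Adcy1 fell 1.96-fold against WT H1.4 (log2 fold change -0.97, SE 0.18, adjusted p = 0.00314). Its call against GFP (-0.73, adjusted p = 0.0214) was lost without GFP 2 (-0.63, adjusted p = 0.0749) and with only the groups compared (-0.73, adjusted p = 0.075). Nos1, the neuronal nitric oxide synthase, fell 1.75-fold and Pde1a, a calmodulin-dependent phosphodiesterase, 1.48-fold against WT H1.4.

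Most general neuronal markers fell in H1.4 CFT libraries, as Nrgn and Camk2a did, while Camk2d rose. Of 6 pan-neuronal markers, 5 fell in H1.4 CFT versus WT H1.4 and 5 against GFP, where 19.2% and 16.2% of all genes fell. The 6 markers summed to 2595 to 3095 CPM in H1.4 CFT libraries, 3733 to 3880 CPM in WT H1.4 and 3727 to 3951 CPM in GFP libraries. Their median log2 fold change was -0.48 against WT H1.4, beside -0.58 for Camk2a and -1.96 for Nrgn. Of 6 excitatory neuron markers, 3 fell against WT H1.4 and 4 against GFP, with median log2 fold changes of -0.074 and -0.27. Their sums were 773 to 917 CPM in H1.4 CFT libraries, 947 to 975 CPM in WT H1.4 and 999 to 1109 CPM in GFP libraries. Within H1.4 CFT, libraries 3 and 4 had the lowest sums of both lists, as they had the lowest Nrgn and Camk2a.

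Of 6 inhibitory neuron markers, 5 rose in H1.4 CFT versus WT H1.4, where 16.7% of all genes rose. In H1.4 CFT versus GFP 1 of the 6 rose and 1 fell, where 13.3% of all genes rose and 16.2% fell. The median log2 fold change of the 6 was 0.41 against WT H1.4 and -0.24 against GFP. In WT H1.4 versus GFP 5 of the 6 fell, where 0.509% of all genes fell. The 6 markers summed to 128 to 161 CPM in H1.4 CFT libraries, 102 to 119 CPM in WT H1.4 and 139 to 178 CPM in GFP libraries. Of 6 astrocyte markers, 4 rose in H1.4 CFT versus WT H1.4 and 4 fell in WT H1.4 versus GFP, where 16.7% of all genes rose and 0.509% fell. In H1.4 CFT versus GFP 1 of these 6 rose and 0 fell, where 13.3% of all genes rose and 16.2% fell. Astrocyte sums were 1466 to 1612, 1071 to 1147 and 1422 to 1590 CPM in H1.4 CFT, WT H1.4 and GFP libraries. Of the 6 oligodendrocyte lineage markers, edgeR called 0 in each comparison. Over all genes, 35.9% passed in H1.4 CFT versus WT H1.4, 29.5% in H1.4 CFT versus GFP and 0.943% in WT H1.4 versus GFP. At an unadjusted p under 0.05 there were 2 in H1.4 CFT versus WT H1.4, 0 in H1.4 CFT versus GFP and 1 in WT H1.4 versus GFP. The share of all genes at that unadjusted threshold is not given here. DESeq2 called 1, 1 and 0 of the 6 in those comparisons, beside 5983, 4907 and 268 of all genes. With limma-voom the calls were 1, 0 and 0 of the 6, beside 6336, 4986 and 139 of all genes. The markers summed to 373 to 415 CPM in H1.4 CFT libraries, 380 to 449 CPM in WT H1.4 and 387 to 469 CPM in GFP libraries. Of 6 microglia markers, 5 averaged under 1 CPM, Csf1r among them, and 2 of the 6 were tested. Csf1r was higher and P2ry12 lower in H1.4 CFT against both other groups. Over all genes, 16.7% rose and 19.2% fell against WT H1.4, and 13.3% rose and 16.2% fell against GFP. The 6 vascular and fibroblast markers summed to 31.6 to 37.7 CPM in H1.4 CFT libraries, at most 27.8 CPM in WT H1.4 libraries and 31.1 to 35.3 CPM in GFP libraries. Col1a2 and Tek, 2 of the 6, rose against WT H1.4, where 16.7% of all genes rose. Against GFP 1 of the 6 rose, where 13.3% of all genes rose. In WT H1.4 versus GFP 1 of the 6 fell, where 0.509% of all genes fell. None of these markers was at 0 in all libraries. The part of cell composition in the changes of Nrgn and the kinases was not tested.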

How the data were processed

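The authors deposited 1 table per library of raw, unnormalized read counts, keyed by gene symbol. Per the submitters' processing notes, the tools were STAR 2.7.2b and HTSeq 0.10.0 and the build mRatBN7.2. The annotation release and strand setting are not given in the sources used here. Summary entries of the counter, 53.1% to 54.1% of each table's total, were left out, with 45.2% to 46.0% in no annotated feature.

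The counts went into edgeR 4.0.16 (R 4.3.3): filterByExpr by group (minimum count 10, minimum total 15), TMM, and the robust quasi-likelihood test on all 11 libraries with a term for group alone. The Benjamini-Hochberg adjustment ran over the 17294 genes tested (threshold 0.05, biological coefficient of variation 7.02%, 8 residual degrees of freedom). The fit was also run on simulated counts with few changed genes and independent libraries. These data have many changed genes and a split by number, so that run does not show the error rates here. CaMKII ratios were given exact permutation tests, two-sided. The members and gene lists were chosen with earlier results of these data known. Named were all 8 genes, up to 3 genes per list past the threshold in H1.4 CFT versus WT H1.4 by smallest p, the 5 genes most like Nrgn by Pearson correlation of log2 CPM (prior count 2), and H1f4. Pnck, Pcp4, Pcp4l1, Camk2n2, Pde1b, Creb1 and the cell type markers named singly lie outside that rule and were chosen after their values were seen. Some genes of these pathways are not reported here.

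Residuals of equal replicate numbers correlated across the H1.4 CFT and WT H1.4 libraries (0.149, 0.174, 0.192 and 0.142 for numbers 1 to 4) and across the H1.4 CFT and GFP libraries (0.255, 0.124 and 0.163 for numbers 2 to 4). The numbers were taken to pair those samples, from the data and not from a label. Unequal numbers within 1 and 2 or within 3 and 4 correlated as much in these comparisons (0.123 to 0.263). The data therefore show a split into 1 and 2 against 3 and 4 rather than single pairs. Numbers from 1 or 2 correlated negatively with 3 or 4 (-0.265 to -0.118). Residuals were taken from each group's mean, so such negative values follow in part from the positive ones. Between WT H1.4 and GFP 1 of 3 correlations of equal numbers was under 0.1 (0.206, 0.113 and 0.0927). The same split was seen there, with 0.131 to 0.224 for unequal numbers within 1 and 2 or within 3 and 4. Numbers from 1 or 2 with 3 or 4 gave -0.236 to -0.0995. Other settings were RLE scaling, library size alone, DESeq2 1.42.0, limma-voom (limma 3.58.1), no low-count filter, a stricter filter (5 CPM in 3 libraries), only the groups compared, the replicate block, the number pairs 1 and 2 or 3 and 4, and the omission of each library. Overlapping genes were looked up in a GRCr8 gene table, which matched 29477 of 42172 symbols and is not the build of the files.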

Additional observations from a re-analysis of the deposited data

Results flagged for a closer look

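Camk2b in WT H1.4 was the 1 value that stood apart from its group among 20 groups of 4 libraries checked by Dixon's ratio. WT 4 had 766 CPM and the other 3 WT H1.4 libraries 738 to 742 CPM, which gives a gap of 0.858 of the whole range, past the limit of that test at the 0.05 level. Chance flags about 1 in 20 such groups.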

How the results depend on the processing

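For H1.4 CFT versus WT H1.4 the calls of Nrgn, Camk2a, Camk2d, Camkk2 and Ppp3ca were kept under all 21 other settings. Over the 8 genes, 3 comparisons and 21 settings, 478 of 504 values kept their call, 19 changed it and 7 near 0 changed sign. Genes called without each library in turn numbered 5030 to 6444 for H1.4 CFT versus WT H1.4, 3966 to 5132 for H1.4 CFT versus GFP and 44 to 306 for WT H1.4 versus GFP (306 without GFP 2, 44 without GFP 3). For the 47 other genes the counts without each library were 19 to 24, 17 to 25 (17 without GFP 2) and 0 to 1. Of the 8 genes, 6 to 7, 4 to 5 and 0 to 0 were called.

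WT H1.4 versus GFP gave 163 genes in the fit used, but 268 with DESeq2, 462 with no filter, 248 with the replicate block, 348 with only the groups compared and 1608 within libraries 3 and 4. Of the 47 genes 1 was called there, but 2 with the replicate block, only the groups compared or libraries 1 and 2, 3 with no filter and 7 within libraries 3 and 4. Of the 8 genes 0 were called, but 1 (Camk2a) with only the groups compared and 4 (Nrgn, Camk2a, Camk2g and Camkk2) within libraries 3 and 4. The number pairs were chosen from a split in these data, and their fit takes the spread inside pairs alone. Counts of calls within pairs therefore overstate the evidence. H1.4 CFT versus GFP within libraries 1 and 2, where GFP has 1 library, gave 3240 genes and 3 of the 8. The replicate block changed no call of the 8 genes. The causes were not tested.

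Leaving out 1 library, the log2 ratio of Camk2a to Camk2b differed by -0.504 to -0.419 (H1.4 CFT versus WT H1.4), -0.685 to -0.600 (H1.4 CFT versus GFP) and -0.214 to -0.159 (WT H1.4 versus GFP), and the ratio of alpha and beta to delta and gamma by -0.389 to -0.278, -0.476 to -0.365 and -0.110 to -0.0694. The exact p stayed at 0.0286 for Camk2a to Camk2b in H1.4 CFT versus WT H1.4, but for the other ratio it was 0.0571 without WT 1, WT 2, WT 3 or WT 4. In H1.4 CFT versus GFP that other ratio gave 0.133 without GFP 3 or GFP 4 and 0.0667 without GFP 2. With 3 libraries against 3, or 4 against 2, p cannot go below 0.1 or 0.0667. Exchange within pairs of equal number (a replicate block, chosen after seeing the data) gave mean differences of -0.470, -0.673 and -0.178 for Camk2a to Camk2b and -0.333, -0.460 and -0.069 for the other ratio, each at the smallest exact p that 4 (0.125) or 3 pairs (0.25) allow.

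Sign changes were near 0. In H1.4 CFT versus WT H1.4 Camk2g was 0.072 with library size alone, 0.0028 with the stricter filter, 0.0061 within libraries 1 and 2 and -0.032 to 0.00091 without 1 library, and Camk2b was 0.028 within libraries 1 and 2. In H1.4 CFT versus GFP Calm3 was 0.030 with library size alone and 0.065 within libraries 1 and 2, where Camk2b was 0.0030. In WT H1.4 versus GFP within libraries 1 and 2 Camk2b was -0.025, Camkv -0.025 and Gap43 0.0064. Within libraries 3 and 4 Prkcb was 0.039, Calm2 -0.014, Syn1 0.025 and Ppp3cb 0.031. Without 1 library Prkcb ran from -0.040 to 0.032, Syn1 -0.030 to 0.0048 and Ppp3cb -0.039 to 0.0070.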
